A study of Mus musculus with 9 samples.

Results

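A set of 10 genes of systemic and hepatic iron handling were followed through 9 mouse livers: the hepcidin genes Hamp and Hamp2, the plasma iron carrier Trf with its receptors Tfrc and Tfr2, the ferritin subunits Fth1 and Ftl1, the iron transporters Slc40a1 and Slc11a2, and the hepcidin-inducing ligand Bmp6. These 10 rows of a table of 55401 genes were chosen by symbol, with the measured differences of this series already known, above all the lower Hamp and Hamp2 counts of the tumor livers. The counts that led to the choice are the ones described here, so the values of the 10 genes are given as a description, without p-values. Where a count of members past the call rule is given, it says on which side of a common threshold they lie and is no evidence about them.

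Hepcidin is a peptide hormone that hepatocytes secrete. It binds ferroportin, the product of Slc40a1 and the only known cellular iron exporter, and causes its degradation, so that high hepcidin holds iron inside macrophages and enterocytes. Its transcription is raised by bone morphogenetic proteins from the sinusoidal endothelium acting through SMAD proteins, and by interleukin 6 acting through STAT3. Inside cells, iron regulatory proteins bind stem-loops called iron-responsive elements (IREs), which blocks translation of ferritin and ferroportin mRNA and protects the Tfrc mRNA from decay.

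RNA-seq was performed on whole livers of female mice, 3 livers per group, which were 6 weeks old at the start. Healthy mice received no injection. HCC was induced by hydrodynamic tail vein injection of activated AKT and Nras (RAS/AKT) with the Sleeping Beauty transposase, which inserts the oncogenes into the hepatocytes that take up the plasmids; the plasmid list in the sample record also names a β-catenin construct, whereas the series title names RAS/AKT. At 1 week after the oncogenes the untreated HCC mice received a blank AAV8 vector and the miR-22-treated HCC mice AAV8 carrying miR-22, expressed from the CMV promoter, which is not restricted to hepatocytes, and livers were taken 4 weeks after the vector, 5 weeks after the oncogenes. Both HCC groups therefore share the oncogenes, the hydrodynamic injection and AAV8, none of which the healthy group had. The strain is given as FVB/N in the protocol and as C57BL/6 in the sample characteristics. Livers are named by the replicate numbers of their titles, 1 to 3 for healthy and 2 to 4 for both HCC groups.

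Levels are counts per 1000000 (CPM) after TMM scaling, which adjusts library sizes so that most genes do not differ. The libraries held 16664659 to 23908392 counts, and 1 count was worth 0.0374 to 0.0638 CPM. A gene was called where edgeR's quasi-likelihood test gave a Benjamini-Hochberg adjusted p under 0.05 and the fold was over 1.5. In untreated HCC against healthy livers, 22.7% of the 15717 genes tested were called higher and 18.1% lower, and the 2 groups of 3 livers did not overlap for 65.3%. In miR-22-treated against untreated HCC these shares were 8.32%, 5.47% and 39.3%, and in miR-22-treated HCC against healthy livers 16.9%, 7.05% and 48.8%. These are bulk livers, so fewer cells of a type and less RNA per cell cannot be told apart. The summed level of 18 hepatocyte markers (Alb, Apoa1, Cps1 and others) was 171330 to 178880 CPM in healthy livers, 68836 to 87791 CPM in untreated HCC and 107170 to 133710 CPM in miR-22-treated HCC, and its part in the differences below was not tested.

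All 10 genes passed the filter on low counts. Hamp2 passed it through the other groups, since it had 0, 4 and 19 counts in the untreated HCC livers. In untreated HCC against healthy livers 4 members were called higher, namely Tfrc, Trf, Fth1 and Slc11a2, and 4 were called lower, namely Hamp, Hamp2, Tfr2 and Slc40a1, beside the 22.7% and 18.1% of all genes given above, and 7 of 10 did not overlap. Between miR-22-treated and untreated HCC, 3 members were called, Hamp, Hamp2 and Tfr2, all higher, and 8 did not overlap. Between miR-22-treated HCC and healthy livers Slc11a2 was called higher and Hamp and Hamp2 lower, and 8 did not overlap. Since these contrasts guided the choice of genes, nothing is read from these counts. The first 2 comparisons share the untreated livers, so opposite signs in them are not independent of each other.

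**Figure D1:**
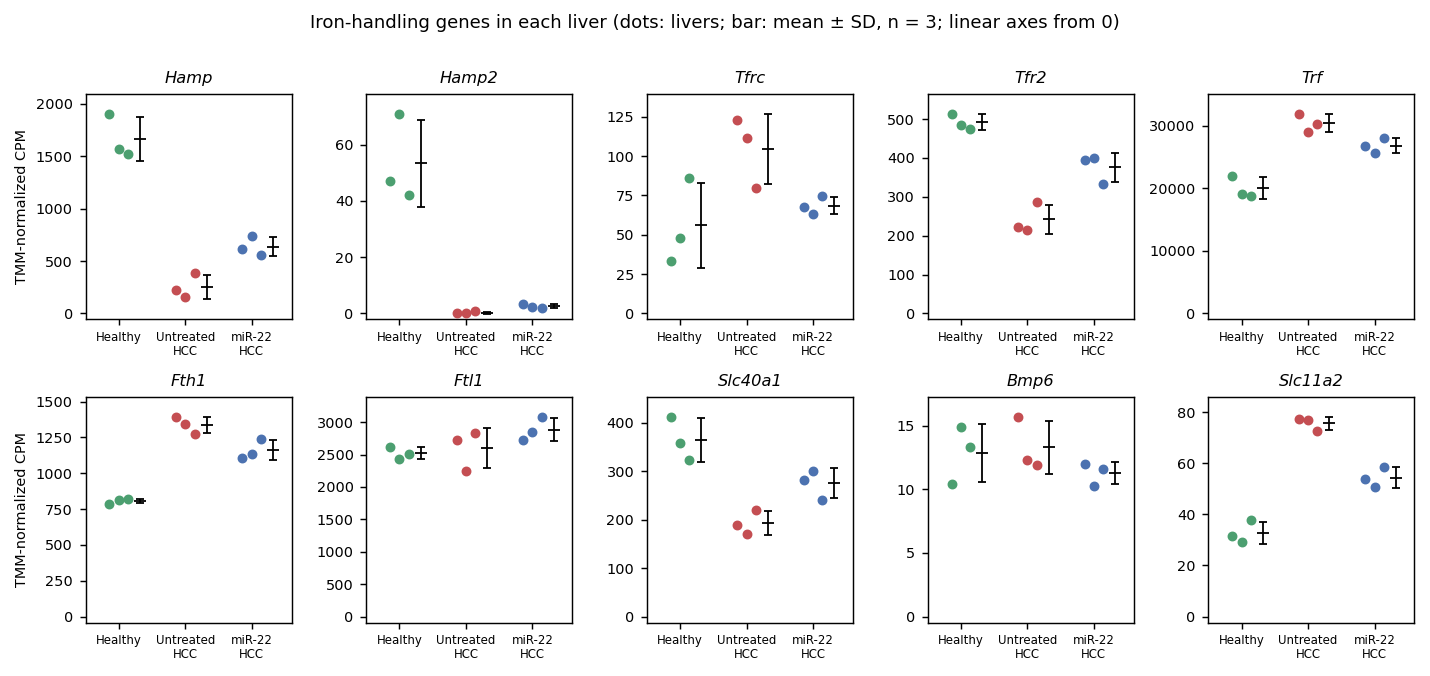
TMM-normalized CPM (linear axes from 0) of the 10 iron-handling genes in each of the 9 livers, with the mean and SD of the 3 livers of each group as bars. Hamp and Hamp2 were high in healthy livers and low in untreated HCC, Slc11a2, Fth1 and Trf showed the opposite order, and Ftl1 and Bmp6 overlapped between healthy and untreated HCC livers.

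Hamp lies on chromosome 7 (GRCm39, 30641766 to 30643990, minus strand, 3 exons), and its near copy Hamp2 lies beside it on the same strand (30621797 to 30624106, 3 exons), 17659 bases away. Over the 250 bases before their start sites the pair was 91.9% identical (227 of 247 aligned bases), in RefSeq sequence of GRCm38.p6. Both stretches are shown because the best known inputs to hepcidin transcription act here, and the copies differ in the letters of the BMP motif. Capitals mark GGCGCC, the core of the BMP-responsive element, and TTCNNNGAA, the pattern that STAT3 binds, each searched on both strands. The Hamp stretch is chr7:30944030-30944279 and the Hamp2 stretch chr7:30924182-30924431, both on the minus strand and written 5′ to 3′ up to the base before the start site.
Hamp: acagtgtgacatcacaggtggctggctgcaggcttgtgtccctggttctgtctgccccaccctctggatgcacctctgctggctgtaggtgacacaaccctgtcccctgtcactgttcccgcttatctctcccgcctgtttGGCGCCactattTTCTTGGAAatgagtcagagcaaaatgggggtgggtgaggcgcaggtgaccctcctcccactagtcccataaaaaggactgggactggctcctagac
Hamp2: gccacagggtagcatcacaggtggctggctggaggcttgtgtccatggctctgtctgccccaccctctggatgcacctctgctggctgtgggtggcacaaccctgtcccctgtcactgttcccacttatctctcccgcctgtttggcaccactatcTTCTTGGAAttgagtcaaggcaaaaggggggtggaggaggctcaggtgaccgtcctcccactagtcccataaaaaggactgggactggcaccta

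Hamp held GGCGCC at bases -109 to -104 and TTCTTGGAA at -97 to -89, while Hamp2 held TTCTTGGAA at -94 to -86 and no GGCGCC. Counted from 1 at the 5′ end of the Hamp stretch, the aligned Hamp2 base differed inside the BMP motif by the substitution G145A. Of 32851 mouse promoters of 300 bases, 11.9% held GGCGCC and 8.3% TTCNNNGAA. A motif match is a description of letters, and the absence of a match says nothing of the factor.

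Hamp was measured at 1908, 1569.5 and 1525 CPM in the healthy livers, at 220.3, 153 and 384 CPM in the untreated HCC livers and at 618, 739 and 556 CPM in the miR-22-treated livers. The 3 groups did not overlap, with the highest untreated liver, replicate 4, below the lowest treated liver. Fitted over the 9 livers, the log2 difference was -2.72 ± 0.27 (SE) in untreated HCC against healthy livers, 6.61-fold lower. With miR-22 it was 1.34 ± 0.26 above untreated HCC, 2.53-fold higher, and still -1.39 ± 0.26 against healthy livers, 2.62-fold lower.

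Hamp2, whose product is a close relative of hepcidin without its established iron-regulating activity, was far less abundant. It stood at 47.0, 71.1 and 42.0 CPM in healthy livers, at 0, 0.179 and 0.710 CPM in untreated HCC, and at 3.32, 2.17 and 1.95 CPM in miR-22-treated HCC. Here too the groups were fully separate, and the treated livers lay much closer to the untreated than to the healthy ones. The log2 difference of untreated HCC from healthy livers was -7.34 ± 0.45, that of treated from untreated HCC 2.91 ± 0.56, and that of treated HCC from healthy livers -4.43 ± 0.35. With so few counts in untreated HCC the size rested on replicate 4, the liver with 19 counts: without it the first value was -9.09 and the second 4.65. The canonical transcripts of the pair were 93.3% identical over 430 aligned bases, so part of the counts of either gene could belong to the other.

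The 5 genes closest to Hamp over the 9 livers, by Pearson's r of log2(CPM + 1), were Retreg2 (r = 0.998), Rdh7 (0.995), Cyp2d26 (0.995), Ebpl (0.995) and Asgr1 (0.994). The 9 livers fall into 3 groups and the libraries are shared by all genes, so these values are a description. Asgr1, the hepatocyte asialoglycoprotein receptor subunit, averaged 501 CPM in healthy livers, 183 CPM in untreated and 319 CPM in miR-22-treated HCC.

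Transferrin, the plasma carrier made by hepatocytes, is encoded by Trf (chromosome 9, 103081200 to 103107814, minus strand, GRCm39). Its level was 21991, 19128 and 18786 CPM in healthy livers, 31941, 29008 and 30302 CPM in untreated HCC and 26701, 25671 and 28085 CPM in treated HCC. All HCC livers lay above all healthy livers, and the treated livers lay below the untreated ones. The log2 differences were 0.61 ± 0.17 for untreated HCC against healthy livers, -0.18 ± 0.17 for treated against untreated HCC and 0.43 ± 0.17 for treated HCC against healthy livers. The first stood just above the 1.5-fold threshold and fell under it without healthy replicate 2 (0.57), healthy replicate 3 (0.55) or untreated replicate 2 (0.57).

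Trf was the most abundant of the 10 genes on a per-length scale in every group, at a mean of 7767, 11831 and 10431 CPM per kb of canonical transcript in healthy, untreated and treated livers. In healthy livers Ftl1 (2599 CPM per kb) and Hamp (2438) followed, with overlapping ranges, then Fth1 at 868. Tfr2 (133), Hamp2 (122) and Slc40a1 (105) came next, and Hamp2 overlapped with both, while Tfr2 and Slc40a1 did not overlap. Tfrc (11.4) and Slc11a2 (10.8) overlapped, and Bmp6 was lowest at 3.58. In untreated HCC Hamp, at 369 CPM per kb, had dropped below Fth1 at 1439, and Hamp2 was last at 0.678. In miR-22-treated HCC Hamp, at 932 CPM per kb, was still below Fth1 at 1249.7. The canonical Hamp transcript is 684 bases long with a 5′ UTR of 296 bases, and its level per kb would be higher on a shorter transcript.

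Transferrin receptor 1, encoded by Tfrc (chromosome 16, 32427556 to 32451612, plus strand), takes iron-loaded transferrin into cells. The 3′ UTR of its canonical transcript, 2458 bases long, held 4 IRE-like sites, which are shown because the mRNA level of this gene is set in large part by these elements. A site was a C, 5 bases, the loop CAGTGN and 5 bases that pair with the first 5, with G and U allowed to pair. Capitals mark the loop, and the sites lie on the plus strand of chromosome 16 (GRCm39) at 32450038 to 32450065, 32450417 to 32450444, 32450482 to 32450509 and 32450529 to 32450556.
Tfrc site at base 895: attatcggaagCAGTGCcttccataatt
Tfrc site at base 1274: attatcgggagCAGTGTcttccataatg
Tfrc site at base 1339: tatatcggagaCAGTGAtctccatatgt
Tfrc site at base 1386: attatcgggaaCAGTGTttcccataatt

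Of 20876 genes with a 3′ UTR, 0.599% held such a site there. Tfrc was measured at 33.3, 48.2 and 86.2 CPM in healthy livers, at 123, 112 and 79.7 CPM in untreated HCC and at 67.9, 63.5 and 74.5 CPM in miR-22-treated HCC. The healthy livers were widely spread, and the highest of them, replicate 3, was above the lowest untreated liver, so these groups overlapped. The log2 difference of untreated HCC from healthy livers was 0.90 ± 0.26, and without healthy replicate 2 it was 0.80 and no longer past the call rule. All treated livers lay below all untreated livers, with a log2 difference of -0.61 ± 0.26, and against healthy livers the difference was 0.29 ± 0.26. Without healthy replicate 3 that last value was 0.74.

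Dividing cells and erythroid precursors carry much transferrin receptor, and the summed levels of both marker lists were higher in the HCC livers. The summed level of 14 proliferation markers was 130.8 to 133 CPM in healthy livers, 287 to 359 CPM in untreated and 238 to 309 CPM in treated HCC. That of 14 erythroid markers was 121 to 176, 236 to 329 and 217 to 243 CPM, made up mostly of globin transcripts, with Gata1 at 0 in all livers and Rhag at 0 in both HCC groups. In untreated HCC against healthy livers 12 of the 14 proliferation markers were called higher, whereas Tk1 was called lower, from a mean of 70.6 to 15.5 CPM. Of the 6 erythroid markers tested 4 were called higher, and Klf1, an erythroid transcription factor, was called lower, from 4.69 to 1.101 CPM. The part of either list in the Tfrc values was not tested. The genes closest to Tfrc over the 9 livers were Tfdp1 (r = 0.959), Kpna2 (0.950), Srp19 (0.949), Arf2 (0.948) and Pdik1l (0.940).

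Transferrin receptor 2, encoded by Tfr2 (chromosome 5, 137568087 to 137586343, plus strand), is the hepatocyte sensor of loaded transferrin. Healthy livers had 514, 485 and 475 CPM, untreated HCC livers 223, 216 and 286 CPM, and treated livers 394, 399 and 334 CPM. The groups were separate and kept the order seen for Hamp. Untreated HCC differed from healthy livers by -1.02 ± 0.13 (log2), 2.03-fold lower, treated from untreated HCC by 0.64 ± 0.13, and treated HCC from healthy livers by -0.39 ± 0.12. The second value was close to the threshold, at 0.58 without untreated replicate 2 and 0.56 without untreated replicate 3.

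**Figure D2:**
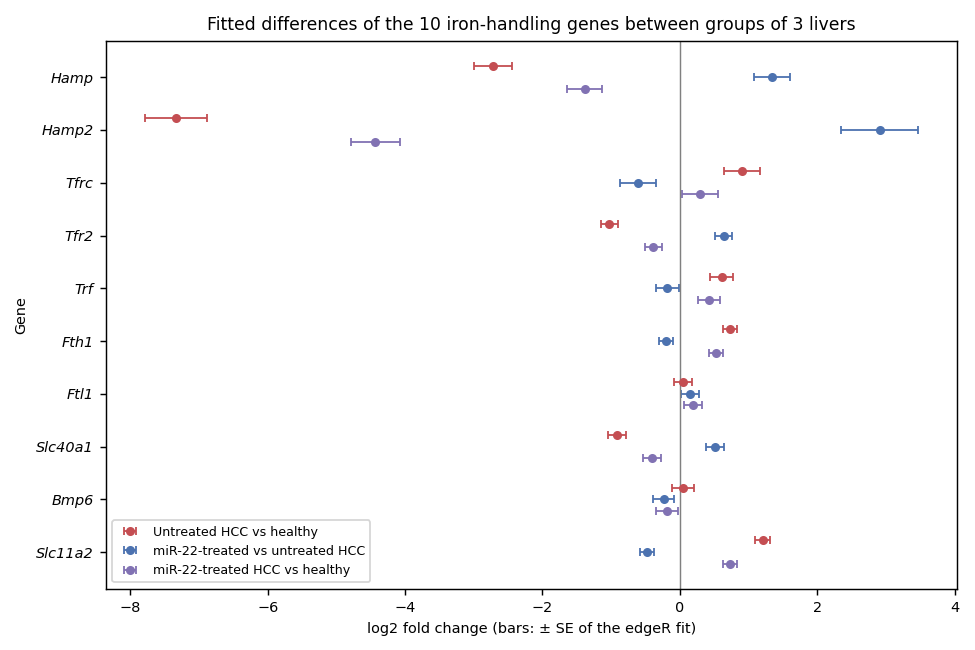
Fitted log2 fold changes (x axis, bars ± SE computed from the F statistic of the edgeR fit over 9 livers) of the 10 genes (y axis) in the 3 comparisons between groups of 3 livers. Hamp2 and Hamp showed the largest differences, and for every gene but Ftl1 the point for miR-22-treated against untreated HCC lay on the other side of 0 from that for untreated HCC against healthy livers, with Bmp6 close to 0 in the latter (0.05 ± 0.16).

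Ferritin stores iron in a shell of heavy chains, which oxidize iron, and light chains, which help mineralize it. Fth1 (chromosome 19, 9957911 to 9962462, plus strand) and Ftl1 (chromosome 7, 45107367 to 45109308, minus strand) each held an IRE-like site in the 5′ UTR, as did Slc40a1 (chromosome 1, 45947211 to 45965683, minus strand). The sites are shown because iron regulatory proteins bound here block translation, which a count of mRNA does not record. They lie at 9960097 to 9960124 of chromosome 19, 45109203 to 45109230 of chromosome 7 and 45964625 to 45964652 of chromosome 1 (GRCm39), with the loop in capitals.
Fth1: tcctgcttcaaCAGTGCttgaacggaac
Ftl1: tcttgcttcaaCAGTGTttgaacggaac
Slc40a1: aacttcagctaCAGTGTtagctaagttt

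Only 0.114% of 20995 genes with a 5′ UTR held such a site, and the search found none in either UTR of the canonical Slc11a2 transcript. Fth1 was measured at 788, 815 and 817 CPM in healthy livers, 1391, 1344 and 1276 CPM in untreated HCC and 1109, 1133 and 1241 CPM in treated HCC. Every HCC liver lay above every healthy liver, and the treated livers lay just under the untreated ones. The log2 differences were 0.73 ± 0.11, -0.20 ± 0.11 and 0.53 ± 0.11 for untreated HCC against healthy livers, treated against untreated HCC and treated HCC against healthy livers.

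Ftl1, the light chain, stood at 2620, 2433 and 2503 CPM in healthy livers, 2731, 2248 and 2834 CPM in untreated HCC and 2724, 2849 and 3084 CPM in treated HCC. The untreated livers straddled the healthy ones, and the log2 difference was 0.05 ± 0.13, with 0.15 ± 0.13 for treated against untreated HCC and 0.20 ± 0.13 for treated HCC against healthy livers. Fth1 and Ftl1 thus had different values in the same livers, as the plot of fitted log2 fold changes shows. Ferritin pseudogenes could take or give reads, but their counts were small. The processed copy Ftl1-ps1 held 57 to 107 counts per liver, against 38609 or more for Ftl1, and the other ferritin-like rows held at most 7 counts.

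Ferroportin mRNA (Slc40a1) was measured at 413, 357 and 323 CPM in healthy livers, 189, 170 and 221 CPM in untreated HCC and 283, 301 and 241 CPM in treated HCC. The groups were separate, in the order healthy, treated, untreated. The log2 differences were -0.92 ± 0.13, 0.51 ± 0.13 and -0.41 ± 0.13 in the 3 comparisons in the order above. Without untreated replicate 4 or without treated replicate 4 the second was 0.62 or 0.60 and passed the 1.5-fold threshold. It was 0.49 or 0.42 without untreated replicate 2 or 3, and 0.49 or 0.44 without treated replicate 2 or 3, all under that threshold. In liver, macrophages carry much of this exporter, and the summed level of 13 Kupffer cell and macrophage markers was higher in HCC, at 518 to 656 CPM in healthy livers, 822 to 940 CPM in untreated and 860 to 872 CPM in treated HCC. The list did not move as one. Of its 13 markers 4 were called higher in untreated HCC against healthy livers, among them Cd14, from a mean of 4.17 to 198 CPM, and Lyz2, from 49.0 to 135 CPM, while Timd4 was called lower, from 12.9 to 7.73 CPM. The Kupffer cell markers Clec4f (means of 168, 126 and 168 CPM in healthy, untreated and treated livers) and Vsig4 (33.1, 24.6 and 35.2 CPM) were not called and, like Slc40a1, had their lowest mean in untreated HCC. Cd5l (94.5, 97.2 and 107 CPM), Adgre1 (16.4, 19.7 and 21.7 CPM), Csf1r (69.9, 77.8 and 74.1 CPM) and Marco (8.29, 8.48 and 7.51 CPM) were not called either. None of these had its lowest mean there. The part of hepatocytes and macrophages in the level of Slc40a1 was not tested.

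Slc11a2 (chromosome 15, 100285776 to 100322953, minus strand) encodes DMT1, the importer that moves ferrous iron across the endosome and cell membrane. Its level was 31.7, 29.0 and 37.6 CPM in healthy livers, 77.3, 77.1 and 72.5 CPM in untreated HCC and 54.0, 50.6 and 58.6 CPM in treated HCC. The 3 groups were far apart relative to their spread. Untreated HCC was 1.20 ± 0.10 (log2) above healthy livers, 2.3-fold higher, treated HCC -0.47 ± 0.10 from untreated, and treated HCC 0.73 ± 0.10 above healthy livers.

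Bmp6 (chromosome 13, 38529065 to 38684280, plus strand), the ligand by which the sinusoidal endothelium reports liver iron to hepatocytes, was low in every group. It had 10.4, 14.9 and 13.4 CPM in healthy livers, 15.7, 12.3 and 11.9 CPM in untreated HCC and 11.95, 10.3 and 11.6 CPM in treated HCC. The groups overlapped in each comparison, with log2 differences of 0.05 ± 0.16, -0.24 ± 0.16 and -0.19 ± 0.16. The summed level of 15 sinusoidal endothelial markers was 902 to 1123 CPM in healthy livers, 484 to 626 CPM in untreated and 668 to 870 CPM in treated HCC. That sum did not overlap between the groups. Of the 15 markers 10 were called lower in untreated HCC, whereas Pecam1 (means of 30.4, 33.3 and 37.1 CPM in healthy, untreated and treated livers), Cdh5 (39.7, 41.3 and 42.9 CPM) and Tie1 (21.0, 19.6 and 21.3 CPM) were not called, and Lyve1 (4.27, 6.61 and 8.39 CPM) was called higher in treated HCC than in healthy livers. The list did not move as one, and its part in the Bmp6 values was not tested.

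The treatment itself is a microRNA, and its mature strand (RefSeq, GRCm38.p6, chr11:75463772-75463793, plus strand) is shown with the seed, bases 2 to 8, in capitals. Complements of the seed, GGCAGCT, stood in the 3′ UTR of 3 of the 10 genes, Ftl1, Bmp6 and Slc11a2, against 2929 of 20876 genes with a 3′ UTR. The median 3′ UTR was 613 bases for the 10 genes and 1081 for all. The sites are written as DNA with the complement in capitals, at GRCm39 45107430 to 45107451 of chromosome 7, 38683518 to 38683539 of chromosome 13 and 100286762 to 100286783 of chromosome 15.
mmu-miR-22-3p: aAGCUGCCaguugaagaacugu
Ftl1: tcaagccactaGGCAGCTttgt
Bmp6: ttcccagcaagGGCAGCTcaca
Slc11a2: agtgggcctgtGGCAGCTgtgc

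In miR-22-treated against untreated HCC these 3 genes had the log2 differences given above, 0.15 for Ftl1, -0.24 for Bmp6 and -0.47 for Slc11a2, and of the 3 only Slc11a2 had groups that did not overlap. The 7 genes without a site all had groups that did not overlap, as did 39.3% of all genes tested. Their differences ran from -0.61 for Tfrc to 2.91 for Hamp2.

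The sign of a difference depends on the scale to which libraries are set. When libraries were scaled to the summed counts of the 18 hepatocyte markers, a choice made after seeing the data, the median log2 difference of all genes moved from 0.01 to 1.20 in untreated HCC against healthy livers and from 0.002 to -0.65 in treated against untreated HCC. On that scale Hamp was 1067, 916 and 890 per 100000 hepatocyte marker counts in healthy livers, 298, 222 and 437 in untreated HCC and 512, 553 and 518 in treated HCC, with log2 differences of -1.59 ± 0.18 and 0.73 ± 0.18. The groups of Hamp remained separate, and Hamp2 also stayed lower in untreated HCC (-6.22 ± 0.46) and higher with miR-22 (2.33 ± 0.51). A shift of this size turns any smaller difference of the opposite sign by construction, so values on this scale are read against the median of all genes. Tfr2 (0.15 ± 0.11) and Slc40a1 (0.26 ± 0.12) were above 0 in untreated HCC against healthy livers but still below the median of 1.20. In treated against untreated HCC Tfr2 was at -0.01 ± 0.11, Slc40a1 at -0.14 ± 0.12 and Ftl1 at -0.49 ± 0.12, all 3 still above the median of -0.65. Slc11a2, at 2.40 ± 0.17 and -1.12 ± 0.16, lay beyond the median in both.

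**Figure D3:**
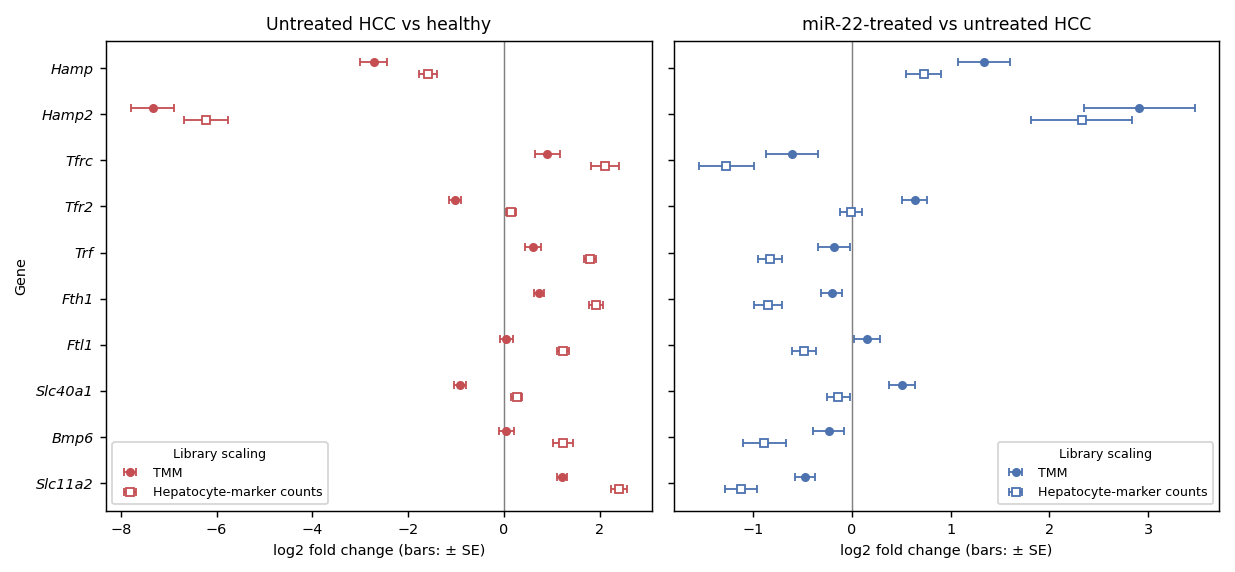
Log2 fold changes (x axis, bars ± SE) of the 10 genes (y axis) with libraries scaled by TMM (filled circles) or to the summed counts of 18 hepatocyte markers (open squares), for untreated HCC against healthy livers and miR-22-treated against untreated HCC. Hamp and Hamp2 stayed on the same side of 0 under both scalings in both comparisons, while Tfr2 and Slc40a1 moved to about 0 as the median of all genes moved to 1.20 and -0.65.

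The control of hepcidin was examined through the other genes of the pathway. Lists of further iron genes, 7 in number, held 164 genes of the table, of which 151 were tested. In untreated HCC against healthy livers 30 were called higher and 33 lower, 19.9% and 21.9% beside 22.7% and 18.1% of all genes tested, with a median log2 difference of -0.10 beside 0.01 for all genes. In miR-22-treated against untreated HCC 16 were called higher and 12 lower, 10.6% and 7.95% beside 8.32% and 5.47%, with medians of 0.09 and 0.002. In miR-22-treated HCC against healthy livers 27 were called higher and 11 lower, 17.9% and 7.28% beside 16.9% and 7.05%, with medians of -0.06 and 0.02. These shares are near those of all genes, and nothing is read from them about iron genes as a group. At an unadjusted p under 0.05, 31.7% of all genes were higher and 29.1% lower in untreated HCC against healthy livers, and 19.1% and 17% in treated against untreated HCC. All adjusted p-values below are from edgeR's quasi-likelihood test over the 15717 genes.

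**Figure D4:**
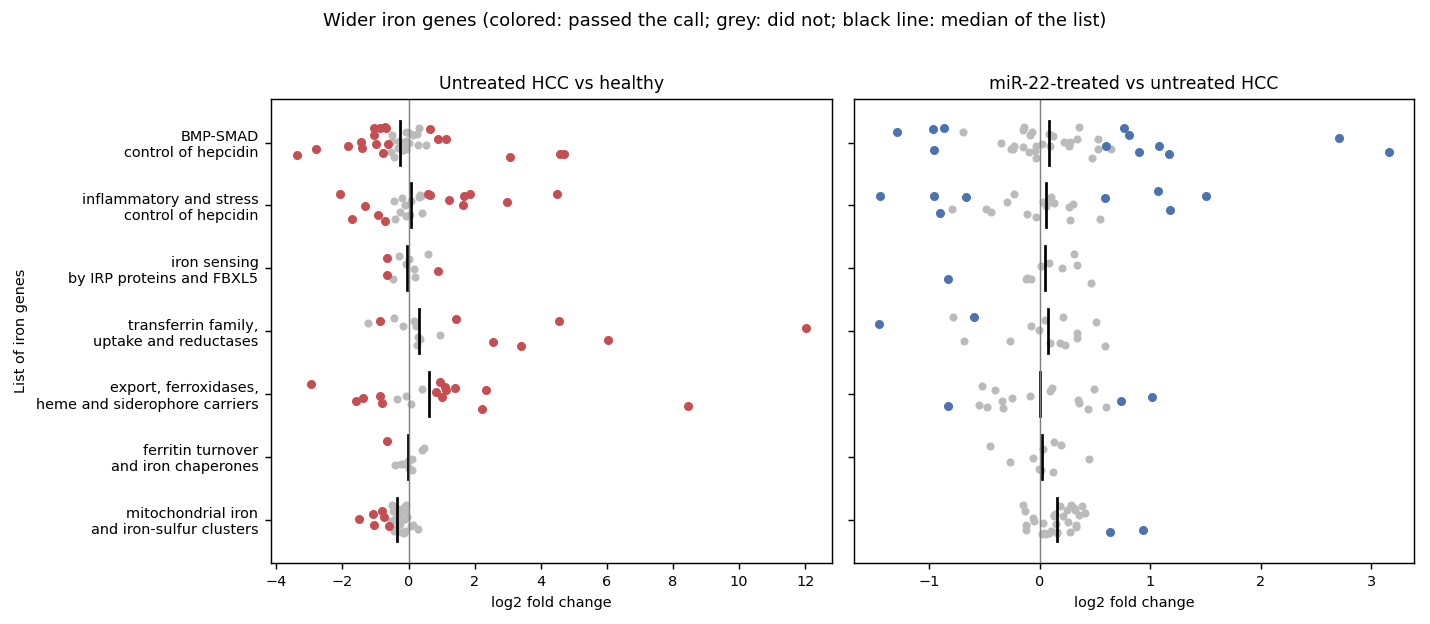
Log2 fold changes (x axis) of the tested genes of 7 iron lists (y axis), with the genes that passed the call colored, those that did not in grey, and the median of each list as a black line. The left panel compares untreated HCC with healthy livers and the right panel miR-22-treated with untreated HCC, on different x scales. In the left panel called genes of both hepcidin control lists lay on either side of 0, and the called genes of the mitochondrial list lay below it.

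Of 39 tested genes of BMP-SMAD control, 6 rose and 13 fell in untreated HCC against healthy livers (15.4% and 33.3%, beside 22.7% and 18.1% of all genes, median -0.26), and 8 rose and 4 fell with miR-22 against untreated HCC (20.5% and 10.3%, beside 8.32% and 5.47%, median 0.08). Among the ligands, Bmp2, the other endothelial ligand that drives hepcidin, fell from 24.4, 29.9 and 27.3 CPM in healthy livers to 11.9, 7.48 and 11.02 CPM in untreated HCC, and stood at 22.6, 26.0 and 15.8 CPM with miR-22. Its log2 differences were -1.42 ± 0.20 (adjusted p = 4.93e-05) and 1.08 ± 0.20 (adjusted p = 0.00233). The summed level of the sinusoidal endothelial markers given beside Bmp6 was in the same order over the 3 groups, and its part in the Bmp2 values was not tested. Bmp7, which is normally scarce in liver, rose from 0.315 to 0.879 CPM in healthy livers to 13.1 to 21.1 CPM in untreated HCC (log2 difference 4.58 ± 0.35, adjusted p = 4.18e-07) and fell with miR-22 to 4.46 to 8.32 CPM (-1.29 ± 0.26, adjusted p = 0.00439). Bmp2 was thus called lower and Bmp7 higher in the same untreated livers in which Bmp6 overlapped with the healthy ones.

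Of the membrane proteins that set the hepatocyte response, the co-receptor Hjv was at 55.2 to 74.1 CPM in healthy livers, 40.9 to 57.4 CPM in untreated and 50.2 to 61.5 CPM in treated HCC, and was not called. Hfe, the hemochromatosis protein that acts with Tfr2, was at 35.6 to 40.2, 36.4 to 39.9 and 44.0 to 48.4 CPM and was not called either. Tmprss6, the protease that restrains hepcidin by cleaving the co-receptor, fell from 680, 673 and 643 CPM in healthy livers to 310, 282 and 413 CPM in untreated HCC (-0.99 ± 0.14, adjusted p = 5.6e-05). With miR-22 it stood at 525, 534 and 461 CPM (0.60 ± 0.14 above untreated HCC, adjusted p = 0.00819). That call stood just past the fold threshold and was lost without untreated replicate 2 or 3 or treated replicate 2 or 3 (0.49 to 0.57) and under DESeq2 (0.57). St14, the related protease matriptase, rose from 0.377 to 0.756 CPM to 12.8 to 16.8 CPM in untreated HCC (4.70 ± 0.38, adjusted p = 6.17e-07).

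Smad9, a receptor-activated SMAD of this pathway, fell from 29.4, 26.0 and 17.7 CPM to 2.48, 1.88 and 5.94 CPM in untreated HCC (-2.79 ± 0.37, adjusted p = 3.9e-05) and stood at 14.4, 24.4 and 29.7 CPM with miR-22 (2.71 ± 0.37, adjusted p = 0.000558). Of the genes that BMP signaling switches on, Smad7 (-0.67 ± 0.24, adjusted p = 0.0279), Smad6 (-0.71 ± 0.25, adjusted p = 0.0265) and Atoh8 (-0.76 ± 0.25, adjusted p = 0.0193) fell in untreated HCC, and Id1 did not pass, at 9.89 to 40.6 CPM in healthy livers and 14.6 to 20.5 CPM in untreated HCC. None of these 4 passed in treated against untreated HCC. Each of these calls depended on single livers. Smad6 was no longer called without healthy replicate 1 or 2 or untreated replicate 2 or 3 (-0.56 to -0.70), Smad7 without healthy replicate 1 (-0.41) or untreated replicate 2, 3 or 4 (-0.65 to -0.72), and Atoh8 without healthy replicate 1 (-0.54) or untreated replicate 2 or 3 (-0.66 and -0.59).

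Growth factors that lower hepcidin belong to the same list. Pdgfb rose from 1.21 to 1.83 CPM to 11.2 to 15.4 CPM in untreated HCC (3.08 ± 0.24, adjusted p = 4.29e-07) and fell with miR-22 to 5.36 to 8.18 CPM. Hgfac, which activates hepatocyte growth factor, fell from 190 to 209 CPM to 49.7 to 69.0 CPM (-1.82 ± 0.15, adjusted p = 8.29e-07) and rose with miR-22 to 84.3 to 122 CPM (0.90 ± 0.15, adjusted p = 0.00136). Erfe, the erythroid suppressor of hepcidin, was near the detection limit, at 0 to 0.126 CPM in healthy livers and 0.422 to 0.672 CPM in untreated HCC, and was not tested. Fgl1, a liver-derived suppressor, was at 312 to 442, 392 to 509 and 547 to 675 CPM in the 3 groups and was called between treated HCC and healthy livers only (0.72 ± 0.15, adjusted p = 0.00238).

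**Figure D5:**
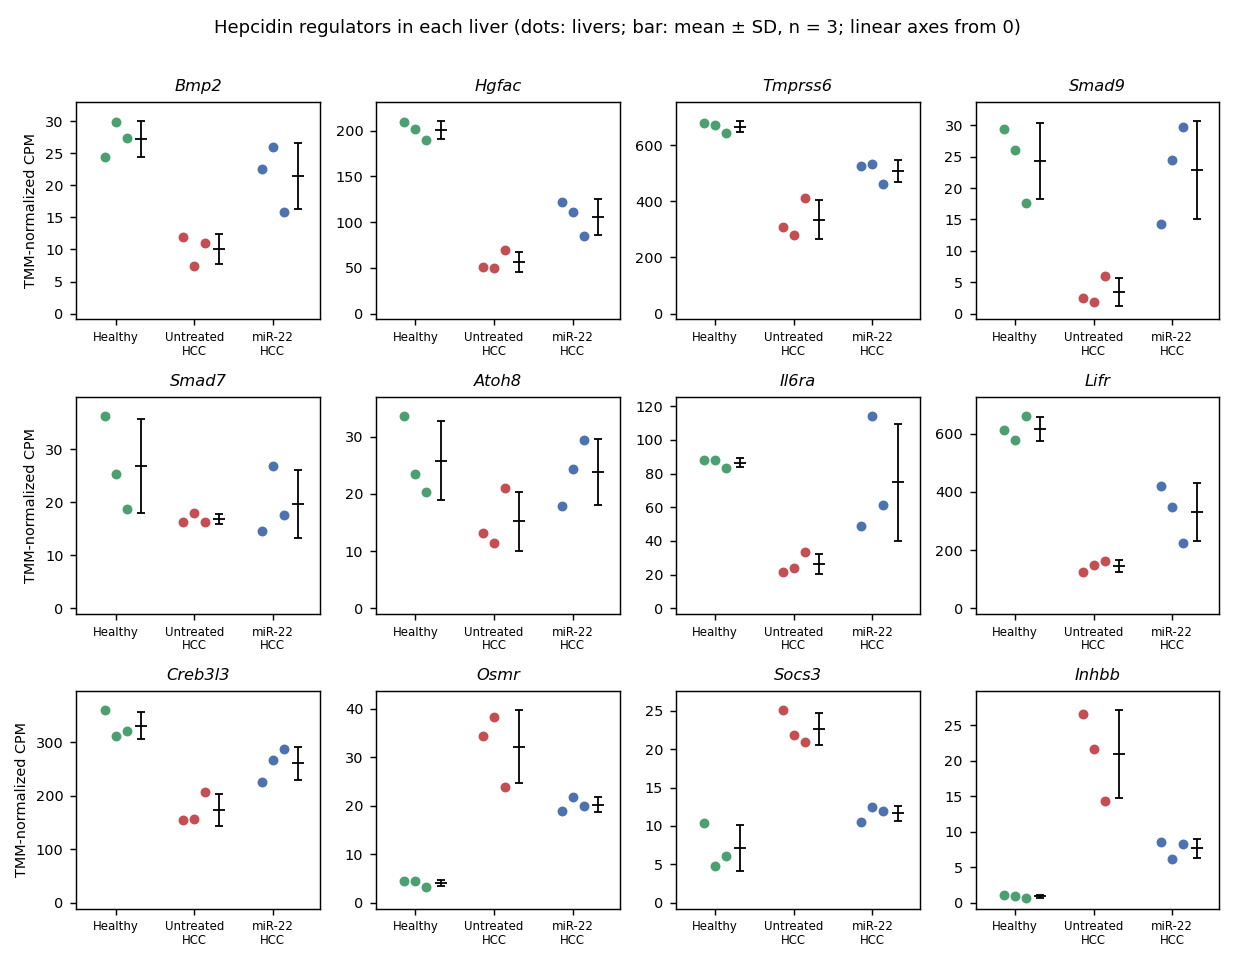
TMM-normalized CPM (linear axes from 0) of 12 regulators of hepcidin in each of the 9 livers, with the mean and SD of the 3 livers of each group as bars. Bmp2, Hgfac, Tmprss6, Smad9, Il6ra, Lifr and Creb3l3 were lowest in untreated HCC, whereas Osmr, Socs3 and Inhbb were highest there.

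In the list of inflammatory and stress control, 8 of 25 genes rose and 5 fell in untreated HCC against healthy livers (32% and 20% of the list, beside 22.7% and 18.1%, median 0.06), and 4 rose and 4 fell with miR-22 against untreated HCC (16% each, beside 8.32% and 5.47%, median 0.06). The receptors split. Il6ra, the interleukin 6 receptor, fell from 88.0, 87.8 and 83.6 CPM to 21.5, 24.0 and 33.1 CPM in untreated HCC (-1.72 ± 0.26, adjusted p = 9.49e-05) and stood at 48.9, 114 and 61.1 CPM with miR-22 (1.51 ± 0.26, adjusted p = 0.00158). Lifr, the leukemia inhibitory factor receptor, fell likewise (-2.08 ± 0.20, adjusted p = 2.08e-06) and rose with miR-22 (1.181 ± 0.19, adjusted p = 0.00122). Osmr, the oncostatin M receptor, rose from 3.30 to 4.46 CPM to 23.8 to 38.3 CPM (2.99 ± 0.19, adjusted p = 1.03e-07).

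Downstream of these receptors, Stat3 was at 119.8 to 141 CPM in healthy livers, 163 to 169 CPM in untreated and 165 to 195 CPM in treated HCC and did not pass the fold threshold. Socs3, a feedback target of STAT3, rose from 10.4, 4.73 and 6.10 CPM to 25.03, 21.9 and 20.9 CPM in untreated HCC (1.68 ± 0.22, adjusted p = 3.3e-05) and fell with miR-22 to 10.5, 12.5 and 11.9 CPM (-0.96 ± 0.21, adjusted p = 0.0065). Hamp, also a STAT3 target, had the opposite order in the same livers. Inhbb, the activin B subunit that can induce hepcidin in inflammation, rose from 0.714 to 1.13 CPM to 14.3 to 26.6 CPM (4.49 ± 0.28, adjusted p = 9.77e-08), and Inhba rose by 1.87 ± 0.18 (adjusted p = 2.21e-06). Both fell with miR-22, by 1.44 for Inhbb (adjusted p = 0.000902) and by 0.90 for Inhba (adjusted p = 0.00284). Creb3l3, a liver stress factor that can drive hepcidin, fell in untreated HCC (-0.94 ± 0.13, adjusted p = 6.79e-05) and rose with miR-22 (0.59 ± 0.13, adjusted p = 0.00739). The last call was lost without untreated replicate 2 or 3 or treated replicate 3 or 4 (0.51 to 0.57) and under DESeq2 (0.56). Cebpb did not pass in untreated HCC against healthy livers and rose with miR-22 (1.07 ± 0.16, adjusted p = 0.000773).

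Iron sensing inside cells was the next list. Of its 10 tested genes, 1 rose and 2 fell in untreated HCC (10% and 20%, beside 22.7% and 18.1%, median -0.03), and with miR-22 against untreated HCC 1 passed, Egln3, which fell (-0.82 ± 0.13, adjusted p = 0.0012), while 0 rose by edgeR or DESeq2 and 4 were higher at an unadjusted p under 0.05 (10% called lower, beside 5.47% of all genes). Egln3 is an oxygen-sensing prolyl hydroxylase, and its rise in untreated HCC was 0.88 ± 0.13 (adjusted p = 0.000111). Both iron regulatory proteins fell in untreated HCC: Aco1 from 315 to 395 CPM to 215 to 240.3 CPM (-0.67 ± 0.11, adjusted p = 0.000218) and Ireb2 from 138 to 148 CPM to 86.1 to 93.5 CPM (-0.65 ± 0.13, adjusted p = 0.000933). Fbxl5, the iron-sensing ligase that removes them, was at 51.3 to 58.0 CPM and 60.0 to 63.7 CPM and was not called. Ncoa4, the receptor that delivers ferritin to lysosomes, fell (-0.65 ± 0.13, adjusted p = 0.000706) and was the only called gene of 10 in the list of ferritin turnover and chaperones, whose median was -0.005. In that list 0 genes rose by edgeR or DESeq2, with 1 higher at an unadjusted p under 0.05 (10% called lower, beside 18.1% of all genes). The iron chaperone Pcbp1 was at 149.8 to 174, 172 to 180 and 143 to 153 CPM and was not called.

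Among uptake genes and reductases 6 of 16 rose and 1 fell in untreated HCC (37.5% and 6.25%, beside 22.7% and 18.1%, median 0.31), and with miR-22 against untreated HCC 2 passed, Meltf and Cd44, both lower. By edgeR and by DESeq2 0 rose there, with 2 higher at an unadjusted p under 0.05, so that 12.5% were called lower and 0% higher, beside 5.47% and 8.32% of all genes. Meltf, melanotransferrin, was at 0 counts in all 3 healthy livers and at 22.2, 44.5 and 14.5 CPM in untreated HCC, at least 149.6-fold higher when healthy livers are set at a floor of 3 counts per library. It stood at 10.6, 5.36 and 13.4 CPM with miR-22, a log2 difference from untreated HCC of -1.45 ± 0.40 (adjusted p = 0.0242), a call lost without untreated replicate 3 (-0.90), treated replicate 2 (-1.51) or treated replicate 3 (-1.17). DESeq2 did not call it either (-1.49, adjusted p = 0.0542). Scara5, a ferritin receptor, rose from 0.063 to 0.275 CPM to 7.10 to 15.5 CPM (6.03 ± 0.46, adjusted p = 3.82e-07), and Cd44 rose by 2.55 ± 0.20 (adjusted p = 5.58e-07). The call of Cd44 with miR-22 was lost without untreated replicate 2 or 3 or treated replicate 3 or 4 (-0.48 to -0.60). The non-transferrin iron importer Slc39a14 was at 301 to 347, 255 to 299 and 283 to 360 CPM and Steap3, the endosomal ferrireductase that works beside DMT1, at 20.6 to 24.2, 21.4 to 30.6 and 21.7 to 28.6 CPM, and neither was called.

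Of the 18 export, ferroxidase, heme and siderophore genes 9 rose and 5 fell in untreated HCC (50% and 27.8%, beside 22.7% and 18.1%, median 0.61), and with miR-22 2 rose and 1 fell against untreated HCC (11.1% and 5.56%, beside 8.32% and 5.47%). Those that rose were Cd163, the macrophage receptor for haptoglobin-bound hemoglobin (0.74 ± 0.23, adjusted p = 0.0332), and Prom2 (1.02 ± 0.34, adjusted p = 0.0446). Both calls were lost without untreated replicate 3, treated replicate 2 or treated replicate 3 (0.47 to 0.76 for Cd163 and 0.72 to 1.03 for Prom2) and in the fit of only the 2 groups compared, and that of Prom2 also without untreated replicate 2 (1.01). Lcn2, which binds iron-carrying siderophores, rose from 6.41, 5.80 and 2.80 CPM to 2013, 1995 and 1244 CPM (8.46 ± 0.35, adjusted p = 6.56e-09). It was 849.8, 848 and 1259.6 CPM with miR-22 (-0.83 ± 0.25, adjusted p = 0.0308), a call lost without untreated replicate 2 or 3 or treated replicate 2 or 3 (-0.72 to -0.73). Neutrophils carry Lcn2 as well, and the summed level of 12 neutrophil markers was 1.95 to 4.59 CPM in healthy livers, 19.2 to 25.1 CPM in untreated and 19.1 to 28.2 CPM in treated HCC. The part of neutrophils in the Lcn2 values was not tested. Ceruloplasmin (Cp), the ferroxidase that works with ferroportin, rose (1.41 ± 0.13, adjusted p = 2.14e-06), as did haptoglobin (Hp, 2.22 ± 0.18, adjusted p = 6.35e-07) and hemopexin (Hpx, 1.02 ± 0.16, adjusted p = 0.000119), which carry hemoglobin and heme. None of the last 3 passed in treated against untreated HCC, and all 3 were also called higher in treated HCC than in healthy livers.

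In mitochondria, 6 of 33 genes of iron import and iron-sulfur cluster assembly fell in untreated HCC and 0 rose by edgeR (18.2% lower, beside 18.1% of all genes, median -0.34). At an unadjusted p under 0.05, 21 of the 33 were lower and 1 of the 33 higher. That is a larger share lower, and a smaller share higher, than the 29.1% and 31.7% of all genes. DESeq2 called 5 lower and 0 higher. With miR-22 against untreated HCC 2 rose, Cisd1 and Fdx1, and 0 fell (6.06% higher, beside 8.32% of all genes, median 0.16). At an unadjusted p under 0.05, 11 of the 33 were higher and 0 of the 33 lower. That is a larger share higher, and a smaller share lower, than the 19.1% and 17% of all genes. DESeq2 called 2 higher and 0 lower. The call of Fdx1 there was lost without untreated replicate 3 (0.54) or treated replicate 3 (0.56). The largest called decreases in untreated HCC were Cisd1, an iron-sulfur protein of the outer membrane (-1.50 ± 0.14, adjusted p = 1.61e-06), Abcb10 (-1.06 ± 0.09, adjusted p = 1.19e-06) and ferredoxin Fdx1 (-1.03 ± 0.10, adjusted p = 3.18e-06). Cisd1 was at 101 to 116 CPM in healthy livers, 30.3 to 48.0 CPM in untreated and 71.7 to 77.7 CPM in treated HCC (0.94 ± 0.14 above untreated HCC, adjusted p = 0.000732). The mitochondrial importers Slc25a37 and Slc25a28 were not called in untreated HCC.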

How the data were processed

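The authors prepared unstranded libraries (NEBNext Ultra II, non-directional) from liver RNA and, per the labels and methods, quantified reads with Salmon on GRCm39 and summarized them to genes. FastQC 0.11.7 and DESeq2 1.18 are named in the submitters' notes. The deposited raw counts per gene were used; the deposited normalized table was not. Of the 55401 gene identifiers, 93.4% are in the GENCODE vM39 annotation used for coordinates and UTRs. Without strand, overlapping genes cannot be told apart.

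The 10 members and the gene lists were chosen with earlier results of these data known. Counts were filtered (filterByExpr), TMM-scaled and fitted with edgeR 4.0.16 (R 4.3.3) in a quasi-likelihood model of 3 groups, all 9 livers sharing the dispersion, with no covariate. Log2 differences and the folds given with them come from that fit and are not ratios of mean CPM. The SE of a log2 difference was computed as its absolute value over the square root of the test's F statistic. The p-values were adjusted over 15717 genes (Benjamini-Hochberg). The labels do not say that the livers of a group are separate mice, so p-values measure the spread between these samples. A call needed an adjusted p under 0.05 and a fold over 1.5. Replicate pairs differed by more than sampling noise (chi-square per degree of freedom 6.59 to 31.3). Genes outside the 10 were named as the 3 called genes with the smallest p per list and comparison, a fixed set of key regulators, and the 5 genes most correlated with Hamp or Tfrc among those with a mean of at least 1 CPM. The scripts were tested on simulated data. DESeq2 1.42.0, other normalizations, filters, fold rules, a replicate block and leaving out each liver were tried as alternatives. A bound against a group at 0 used 3 counts per library, which covers counting error only. Depth was 16664659 to 23908392 counts per library. Some genes that the naming rule selects are not reported here.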

Additional observations from a re-analysis of the deposited data

How the results depend on the processing

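The number of wider iron genes called in untreated HCC against healthy livers was 63 and ranged from 54 to 63 when each liver was left out. In miR-22-treated against untreated HCC it was 28 (19 to 34), and in treated HCC against healthy livers 38 (35 to 39). For the 10 members, as a description, these counts were 8 (6 to 8), 3 (2 to 4) and 3 (3 to 4). Dropping the fold threshold gave 97, 50 and 62 wider genes, and 8, 5 and 6 members. Testing against a fold of 1.5 with glmTreat gave 44, 6 and 20 wider genes and 5, 1 and 2 members, and the 1 member was Hamp2. With a replicate block the wider counts were 59, 23 and 36 and the member counts 7, 3 and 3, with Trf (0.67), Smad7 (-0.36) and Ireb2 (-0.57) no longer called in untreated HCC against healthy livers, and Meltf (-1.34), Lcn2 (-0.83), Cd44 (-0.57), Cd163 (0.76) and Prom2 (1.04) no longer called in treated against untreated HCC. The numbers were not taken as pairs, since the deviations from the group means of same-numbered livers of the 2 HCC groups had correlations of -0.16, -0.23 and -0.31. DESeq2, its size factors, upper-quartile scaling, both filters and the fit of only 2 groups kept every one of these counts within 1.5 times. A filter of 10 counts in every library removed Hamp2. Scaling to hepatocyte markers, added after seeing the data, moves the median of all genes to 1.20, -0.65 and 0.56 in the 3 comparisons and so turns smaller opposite differences by construction. In untreated HCC against healthy livers Tfr2 (0.15) and Slc40a1 (0.26) changed sign, and Ftl1 (1.23) and Bmp6 (1.24) came past the call rule. In treated against untreated HCC Tfr2 (-0.0065), Slc40a1 (-0.14) and Ftl1 (-0.49) changed sign, and Trf, Fth1, Tfrc, Bmp6 and Slc11a2 came past the rule (-0.83 to -1.27). In treated HCC against healthy livers Tfr2 (0.14), Slc40a1 (0.12) and Bmp6 (0.35) changed sign, and Tfrc, Trf, Fth1 and Ftl1 came past it (0.74 to 1.07). Under all other alternatives 4 of 447 member values changed sign, all of them uncalled values of Ftl1 or Bmp6, and 0 of 1249 values of other named genes did. With 3 livers per group and 0 to 19 counts of Hamp2 in untreated HCC, the size of its difference is set by few reads.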
